A study of Mus musculus with 18 samples.

Results

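The genes described here encode the SCAP, INSIG and SREBP machinery: Scap, Insig1, Insig2, Srebf1, Srebf2, Mbtps1 and Mbtps2. Members were chosen by name, as probe sets that the platform annotation assigns to a single gene symbol. Of the 7 genes, 6 had such a probe set, 1 each, out of 21789 probe sets with a single symbol and 35556 in all. The one probe set of Mbtps2, which encodes the site-2 protease, is shared with Yy2 and is not reported. A second probe set that lists Srebf2 among 4 symbols was also left out. The probe set of Srebf1 does not separate the transcripts of SREBP-1a and SREBP-1c.

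RNA of whole mouse lung was hybridised to Affymetrix Mouse Gene 1.0 ST arrays, and values are log2 expression as deposited. Analysed here were 18 arrays in 6 groups of 3. ScapΔ/Δ mice carried Scap flox/flox with the transgenes SP-C-rtTA and (tetO)7CMV-Cre, and their dams received doxycycline during gestation, so that Cre was made in respiratory epithelial cells. Their controls were Scap flox/flox littermates without one of the transgenes, and both were taken at E18.5 (arrays KO10 to KO12 against C7 to C9) and at PN1, the day of birth (KO16 to KO18 against C13 to C15). Insig1/2Δ/Δ mice carried Insig1 flox/flox, the same transgenes and doxycycline exposure, on an Insig2-/- background, and were taken at E17.5 (KO22 to KO24). Their controls, C19 to C21, were Insig1 flox/flox littermates without one of the transgenes and were Insig2-/- as well. The labels name these genotypes Scap-/-, Insig-/- and Control. The SP-C promoter confines Cre to epithelium, deletion in this system is stated to be incomplete, and the other lung cells keep the floxed gene. In whole lung, fewer cells of a type and less RNA per cell cannot be told apart.

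SREBP-1 and SREBP-2 are transcription factors that are made as membrane proteins of the endoplasmic reticulum. SCAP escorts them in COPII vesicles to the Golgi, where the site-1 and site-2 proteases (encoded by Mbtps1 and Mbtps2) release the active fragment. When sterols are plentiful, INSIG1 or INSIG2 binds SCAP and keeps the complex in the endoplasmic reticulum. SREBP-2 mainly drives genes of cholesterol synthesis and SREBP-1c genes of fatty acid synthesis. Insig1 is itself a target of SREBP, and both Srebf genes respond to their own products. In the lung, type II epithelial cells use this pathway to make the lipids of surfactant.

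The sequence upstream of 4 members is shown here because SREBP feedback acts through such DNA. The windows hold 250 bases before a RefSeq gene start in GRCm38.p6, and capitals mark matches, on either strand, to the sterol element core TCACNCC, the E-box form CACGTG, the NF-Y box CCAAT and the Sp1 box GGGCGG.
Insig1, chr5:28071162-28071411, + strand: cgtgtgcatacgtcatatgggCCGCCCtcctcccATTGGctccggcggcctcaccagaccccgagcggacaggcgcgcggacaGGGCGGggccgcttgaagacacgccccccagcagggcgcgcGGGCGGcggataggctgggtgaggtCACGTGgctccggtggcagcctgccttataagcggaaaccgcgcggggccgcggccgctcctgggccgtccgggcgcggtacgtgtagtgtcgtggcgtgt
Srebf2, chr15:82147019-82147268, + strand: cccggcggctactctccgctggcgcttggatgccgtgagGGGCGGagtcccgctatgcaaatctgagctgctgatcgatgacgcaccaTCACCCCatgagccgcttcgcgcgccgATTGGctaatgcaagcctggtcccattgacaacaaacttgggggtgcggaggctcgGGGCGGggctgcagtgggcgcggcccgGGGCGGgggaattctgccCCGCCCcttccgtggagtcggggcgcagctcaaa
Scap, chr9:110333106-110333355, + strand: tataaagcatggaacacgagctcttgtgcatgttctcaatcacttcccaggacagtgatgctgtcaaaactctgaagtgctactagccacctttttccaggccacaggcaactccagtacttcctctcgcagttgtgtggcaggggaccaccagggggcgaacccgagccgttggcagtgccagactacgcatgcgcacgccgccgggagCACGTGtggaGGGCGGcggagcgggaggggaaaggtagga
Insig2, chr1:121328025-121328274, - strand: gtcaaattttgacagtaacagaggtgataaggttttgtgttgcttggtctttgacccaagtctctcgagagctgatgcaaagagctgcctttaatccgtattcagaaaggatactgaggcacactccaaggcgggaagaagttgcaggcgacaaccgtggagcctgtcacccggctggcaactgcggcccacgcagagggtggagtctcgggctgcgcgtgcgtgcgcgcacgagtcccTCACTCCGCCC
The full sterol regulatory element TCACNCCAC was in none of the 12 windows that RefSeq gives for the 7 genes, and 1.05% of all 32851 windows hold it. The shorter core TCACNCC, added after the data were seen, was in the window of Srebf2 as TCACCCC (bases -162 to -156 from the start) and in 2 windows of Insig2, one of them printed above with TCACTCC at -11 to -5, where it overlaps the Sp1 box at -6 to -1; 13.4% of all windows hold that core. The E-box CACGTG, a subset of the general E-box CANNTG, lay at -101 to -96 of Insig1 and at -40 to -35 of Scap, against 6.02% of all windows. The NF-Y box was in windows of Insig1, Insig2, Srebf1 and Srebf2 (33.8% of all windows), and the Sp1 box in at least 1 window of each of the 6 measured genes (32.7% of all). CANNTG was in 66.2% of all windows and in windows of Insig1, Insig2, Scap, Srebf1, Mbtps1 and Mbtps2. A match of letters is a description of the window alone.

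KO17 and KO18 stood apart: they correlated with each other at r = 0.9944, taken over every probe set, while their correlation with the remaining 16 arrays was 0.9312 to 0.9599 and those 16 correlated among themselves at 0.9729 to 0.9975. On these 2 arrays and KO16 the log2 of the summed level of 10 type II cell markers was 15.21 to 15.48, against 15.70 to 15.74 in PN1 controls. For 8 macrophage markers that value was 12.86 to 13.57 against 13.56 to 13.66, and all 8 differences were below 0 at PN1 (median -0.50). At E18.5 the log2 of the summed level of the type II markers was 15.48 to 15.59 in ScapΔ/Δ lungs and 15.68 to 15.73 in controls. Of the Insig line, C19, C20 and KO22 correlated among themselves at 0.996 to 0.9967 and C21, KO23 and KO24 at 0.9932 to 0.9955, against at most 0.9914 between these sets. Cardiac muscle markers had a mean log2 value of 11.68 on C21 and of 9.23 and 9.47 on C19 and C20. Of the 10 type II markers, 6 were lower with no overlap at E18.5, against 21% of all probe sets. At PN1 6 were lower and 1, Sftpc, was higher (13.42 to 13.50 against 13.36 to 13.37), against 11% and 5.59%. Of 10 general lung epithelium markers, 9 were below 0 at PN1 (median -0.42), and their mean log2 value was 11.01 on KO16, 10.49 on KO17 and 10.46 on KO18 against 10.94 to 11.10 in controls. All 4 erythroid markers were below 0 at PN1 too (median -0.41). No marker of the cell type lists passed the test in any of the 3 deletion comparisons, and the part of these differences in the results was not tested. Of sex-linked genes, Xist read 10.6 on KO16, 6.2 on KO17 and 6.5 on KO18, and Eif2s3y read 5.2, 10.6 and 10.4. All groups were mixed in this way, with Xist at 11.3 on C13, 6.3 on C14 and 6.0 on C15. The part of sex in the results was not tested.

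**Figure D1:**
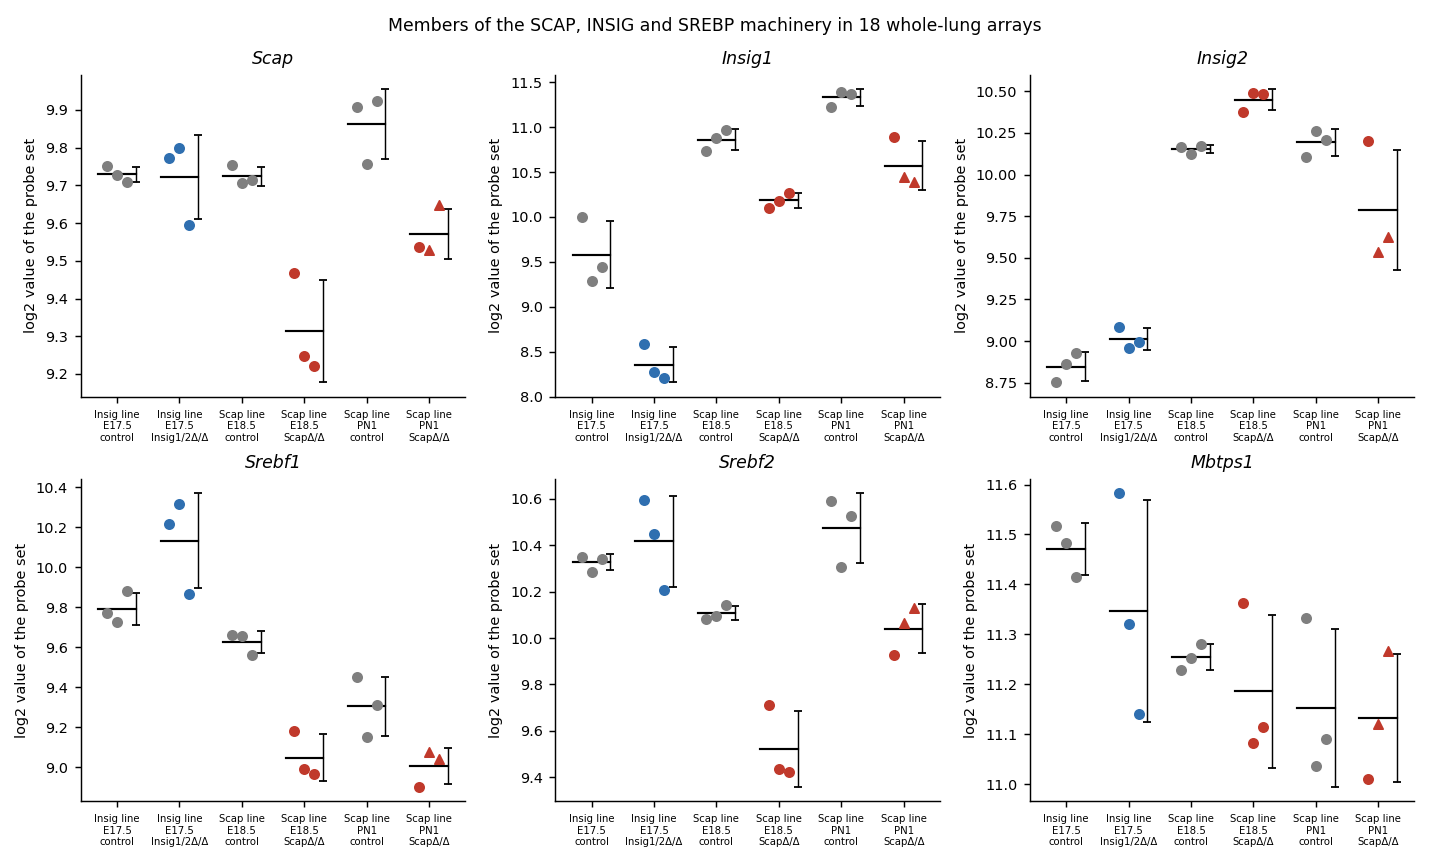
Log2 value of each member's probe set (vertical axes) on every array, in the 6 groups (horizontal axes). Points are arrays, triangles are KO17 and KO18, black lines are group means and bars are 1 SD (n = 3). Scap, Insig1, Srebf1 and Srebf2 lie lower in both ScapΔ/Δ groups than in their controls, and Insig2 separates the lines.

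Scap encodes the escort of SREBP and is the floxed gene of the first line. The gene lies on chromosome 9 from 110333288 to 110384949 in RefSeq on GRCm38.p6, as do the positions given for the other members, and was read by probe set 10589511. At E18.5 Scap read 9.75, 9.71 and 9.71 on the control arrays C7, C8 and C9 and 9.47, 9.25 and 9.22 on the deleted arrays KO10, KO11 and KO12. All 3 ScapΔ/Δ values lay below all 3 control values, and KO10 kept the most. Relative to the mean of the controls, the 3 arrays held 83.7%, 71.9% and 70.6% of the Scap signal. At PN1 Scap read 9.91, 9.76 and 9.92 in controls and 9.54, 9.53 and 9.65 in ScapΔ/Δ lungs, again without overlap. The difference was -0.41 ± 0.09 (SE) at E18.5 and -0.29 ± 0.09 at PN1, with adjusted p = 0.511 and 0.0914 from limma.

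Only 0.00877% of 22800 probe sets passed an adjusted p of 0.05 in each of these comparisons, and no member did. The exact permutation test of 3 against 3 arrays cannot give a p below 0.1, which is what each member with no overlap gave. As a scale, 0.675% of probe sets had a lower difference than Scap at E18.5 and 23.6% had one at PN1. Scap overlapped between the groups of the Insig line, with 9.71 to 9.75 in controls and 9.59 to 9.80 in Insig1/2Δ/Δ lungs, a difference of -0.01 ± 0.08. The order of the groups for Scap was ScapΔ/Δ at E18.5, ScapΔ/Δ at PN1, Insig1/2Δ/Δ, E18.5 control, Insig control and PN1 control, from lowest to highest. In that order the lowest group and the highest group were each clear of their neighbour, and all the other neighbours overlapped.

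Insig1, which encodes the sterol-regulated retention protein, had the widest range of the 6 genes, from 8.21 on KO24 to 11.39 on C14. The gene, on chromosome 5 from 28071412 to 28078662, was read by probe set 10520362. At E18.5 Insig1 read 10.73, 10.88 and 10.97 on the control arrays and 10.10, 10.18 and 10.27 on the ScapΔ/Δ arrays. The ScapΔ/Δ lungs, in which Insig1 is not floxed, held 59.2%, 62.4% and 66.3% of the control mean. The difference was -0.68 ± 0.13 (adjusted p = 0.407 from limma), and 0.053% of all probe sets had a lower one. At PN1 Insig1 read 11.23, 11.39 and 11.37 in controls and 10.89 on KO16, 10.44 on KO17 and 10.39 on KO18. The 2 arrays that stand apart held 54.1% and 52.0% of the control mean and KO16 held 73.4%, so all 3 lay below all controls. The difference was -0.76 ± 0.13 (adjusted p = 0.083 from limma).

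In the Insig line, where Insig1 is floxed around its first exon, Insig1 read 10.002, 9.29 and 9.44 on C19, C20 and C21. With the deletion it read 8.58, 8.28 and 8.21 on KO22, KO23 and KO24. The groups did not overlap, and C19 was the highest of the controls. The difference was -1.22 ± 0.20 (adjusted p = 0.758 from limma), which is a ratio to control of 0.429, and 0.013% of 22775 probe sets had a lower one. Within each set of arrays that correlated best, Insig1 was also lower, by -1.06 for KO22 against C19 and C20 and by -1.20 for KO23 and KO24 against C21. Probe sets of this array type draw probes from along the transcript, and which of them lie in the deleted exon was not tested. From lowest to highest, Insig1 was ordered as Insig1/2Δ/Δ, Insig control, ScapΔ/Δ at E18.5, ScapΔ/Δ at PN1, E18.5 control and PN1 control. All neighbours in that order were separate except ScapΔ/Δ at PN1 and the E18.5 control.

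Insig2 encodes the second retention protein and is disrupted in both groups of the Insig line. The Insig2-/- allele has internal exons replaced by a neo cassette and keeps the rest of the locus, so the probe set can still read signal in these lungs, where it was above the array medians, and its values there are no measure of functional Insig2. The gene, on chromosome 1 from 121304353 to 121332662, was read by probe set 10357280. The Insig controls read 8.75, 8.86 and 8.93, and the Scap line controls at E18.5 read 10.17, 10.12 and 10.17. The difference of -1.31 ± 0.13 passed the test (adjusted p = 0.000145 from limma over all 18 arrays), as did Insig1 at -1.28 ± 0.17 (adjusted p = 0.00111 from limma), where 1.68% of 22717 probe sets were called lower. Line and age cannot be told apart in that comparison, since E17.5 and E18.5 differ too. Srebf1, Srebf2 and Mbtps1 were higher in the Insig controls with no overlap, by 0.17, 0.22 and 0.22, and none passed, while 21.5% of all probe sets were higher with no overlap. Scap differed by 0.004 ± 0.08. The log2 of the summed level of macrophage markers was 12.91 to 13.35 in the Insig controls and 13.64 to 13.77 in the Scap line controls, with 7 of 8 below 0. That of type II markers was 15.09 to 15.64 and 15.68 to 15.73, with 10 of 10 below 0 (median -0.37). Of the type I markers 6 of 7 were below 0, of which 2 were called. The part of these markers in the differences was not tested.

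In ScapΔ/Δ lungs Insig2 differed in the opposite direction to Insig1 at E18.5 and in the same direction at PN1. At E18.5 it read 10.38, 10.49 and 10.48 with the deletion against 10.17, 10.12 and 10.17 in controls, higher on all 3 arrays, by 0.30 ± 0.15 (adjusted p = 0.554 from limma). At PN1 KO16 at 10.20 lay within the control range of 10.11 to 10.26, while KO17 at 9.53 and KO18 at 9.62 lay below it, and KO16 was the highest of the 3 for Insig1 as well. The PN1 difference of -0.41 ± 0.15 (adjusted p = 0.106 from limma) therefore rests on the 2 arrays that stand apart. Without them, which leaves KO16 alone, it was 0.01. The change of the Scap effect on Insig2 from E18.5 to PN1 was -0.70 ± 0.21 (adjusted p = 0.265 from limma) and -0.29 without those arrays. Without KO16 it was -0.91 (adjusted p = 2.58e-05 from limma), when 13219 of 22633 probe sets passed for this change. In Insig1/2Δ/Δ lungs Insig2 read 9.09, 8.96 and 8.996, which is 0.17 ± 0.08 above the controls with no overlap (adjusted p = 0.758 from limma). Within the array sets that difference was 0.28 for KO22 against C19 and C20, and 0.05 for KO23 and KO24 against C21. The groups ran from Insig control and Insig1/2Δ/Δ through ScapΔ/Δ at PN1, E18.5 control and PN1 control to ScapΔ/Δ at E18.5, and overlap was seen only between ScapΔ/Δ at PN1 and E18.5 control and between E18.5 control and PN1 control.

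**Figure D2:**
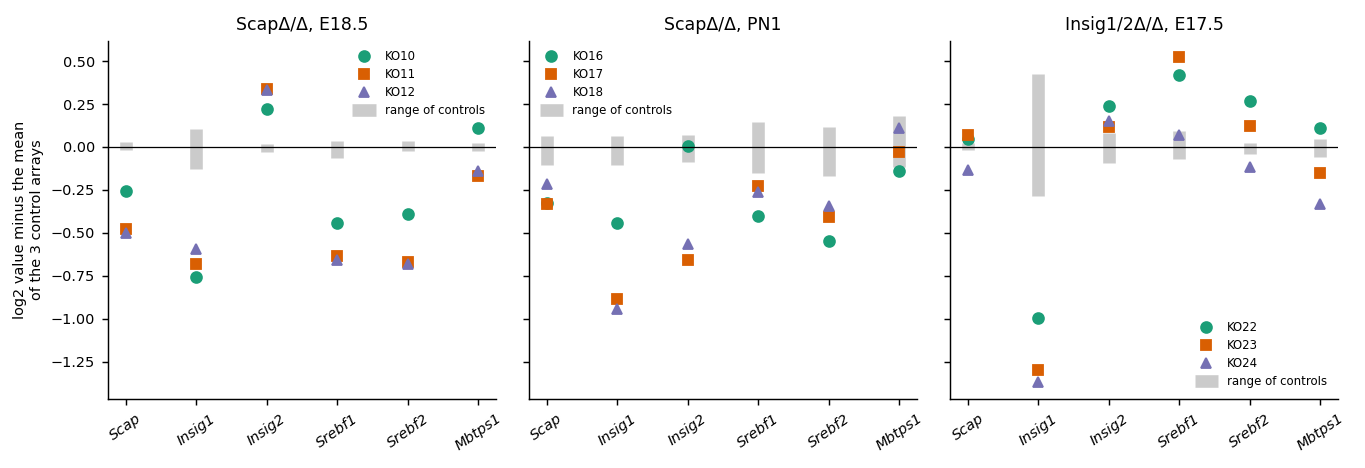
Log2 value of each member on each deleted array minus the mean of the 3 controls of the same line and age (vertical axis), for the 6 members (horizontal axis). Symbols are single arrays and grey bars are the range of the 3 controls around their mean. Scap, Insig1, Srebf1 and Srebf2 lie below the grey bar on all 6 ScapΔ/Δ arrays, and Insig2 lies above it on the E18.5 ScapΔ/Δ arrays and on the Insig1/2Δ/Δ arrays.

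Srebf1 encodes SREBP-1, lies on chromosome 11 from 60199084 to 60224186, and was read by probe set 10386473. At E18.5 Srebf1 read 9.66, 9.66 and 9.56 in controls and 9.18, 8.99 and 8.97 in ScapΔ/Δ lungs. It was thus lower on all 3 deleted arrays, by -0.58 ± 0.10 (adjusted p = 0.327 from limma), and it ranked 7 by p among 22800 probe sets. At PN1 it read 9.45, 9.15 and 9.31 in controls and 8.90, 9.07 and 9.04 in ScapΔ/Δ lungs, a difference of -0.30 ± 0.10 (adjusted p = 0.095 from limma) with no overlap. The deleted lungs of both ages lay at one level, 9.05 ± 0.12 (SD) and 9.01 ± 0.09, while the controls were at 9.63 ± 0.06 at E18.5 and 9.30 ± 0.15 at PN1. In Insig1/2Δ/Δ lungs Srebf1 read 10.21, 10.31 and 9.86 against 9.77, 9.72 and 9.88. KO22 and KO23 lay above all controls and KO24 did not, so the groups overlapped, and the difference was 0.34 ± 0.13 (adjusted p = 0.758 from limma). Within the array sets the difference was 0.47 for KO22 and 0.21 for KO23 and KO24. From lowest to highest the order was ScapΔ/Δ at PN1, ScapΔ/Δ at E18.5, PN1 control, E18.5 control, Insig control and Insig1/2Δ/Δ. Only the E18.5 control was separate from both of its neighbours in that order.

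Srebf2 encodes SREBP-2, lies on chromosome 15 from 82147269 to 82205379, and was read by probe set 10425695. At E18.5 Srebf2 read 10.08, 10.09 and 10.14 in controls and 9.71, 9.43 and 9.42 in ScapΔ/Δ lungs, a difference of -0.58 ± 0.11 (adjusted p = 0.375 from limma). The deleted arrays held 76.1%, 62.8% and 62.3% of the control mean, and KO10 was again the highest of them, as it was for Scap and Srebf1 but not for Insig1. At PN1 it read 10.59, 10.30 and 10.53 in controls and 9.93, 10.06 and 10.13 in ScapΔ/Δ lungs, a difference of -0.43 ± 0.11 (adjusted p = 0.0897 from limma). KO16 was the lowest of the 3 for Srebf1 and Srebf2, with 75.7% and 68.4% of the control mean, although it was the highest for Insig1. Srebf2 in the Insig line ranged from 10.29 to 10.35 in controls and from 10.21 to 10.60 with the deletion, overlapping, with a difference of 0.09 ± 0.11. The order for Srebf2 was ScapΔ/Δ at E18.5, ScapΔ/Δ at PN1, E18.5 control, Insig control, Insig1/2Δ/Δ and PN1 control. The first 2 groups were separate, as were the E18.5 and Insig controls, and the other neighbours overlapped.

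Mbtps1, the site-1 protease that makes the first cut in SREBP, varied least, from 11.01 on KO16 to 11.58 on KO22. The gene, on chromosome 8 from 119508151 to 119558864, was read by probe set 10582094. The deleted and control groups overlapped in all 3 comparisons, with differences of -0.07 ± 0.11 at E18.5, -0.02 ± 0.11 at PN1 and -0.12 ± 0.12 in the Insig line. Adjusted p from limma was 0.83, 0.904 and 0.78. From lowest to highest Mbtps1 was ordered as ScapΔ/Δ and control at PN1, ScapΔ/Δ and control at E18.5, and Insig1/2Δ/Δ and Insig control, with every neighbour overlapping.

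Counted over the 6 genes, 4 were lower with no overlap at E18.5 and 1 was higher, against 21% and 14.5% of all probe sets. Scap, the floxed gene of this line, is 1 of the 4, and its lower value is part of the design. At PN1 the same 4 genes, Scap, Insig1, Srebf1 and Srebf2, were lower with no overlap, against 11% of all probe sets, and KO16 by itself lay below all 3 controls for each of them. In Insig1/2Δ/Δ lungs 1 gene, Insig1, was lower and 1, Insig2, was higher with no overlap, against 4.22% and 5.83%. Insig1 is the floxed gene there, and Insig2 is disrupted in both groups of that line. No member was called there, and 0% of all probe sets were, although 933 had an unadjusted p under 0.05. The change of the Scap effect between the ages called 0% of the probe sets and no member, with 4181 at an unadjusted p under 0.05. With array weights Insig2 (-0.96, adjusted p = 1.79e-05 from limma) and Srebf1 (0.39, 0.00801) passed for this change, when 14685 of 22800 probe sets did. Without KO16 Srebf1 (0.33, adjusted p = 0.0421 from limma) passed as well as Insig2, when 13219 of 22633 probe sets did. Of the fits with 1 array left out, the one without KO16 gave the most calls in the Scap line. Calls also changed in the fit without KO17 and KO18. When KO16 was left out, Insig1 (adjusted p = 0.0146), Srebf1 (0.0276) and Srebf2 (0.0348) passed at E18.5 with unchanged differences, as judged by limma. In that fit 99 of 22633 probe sets passed at E18.5. At PN1 without KO16, Scap (adjusted p = 0.0181), Insig1 (7.8e-06), Insig2 (2.5e-05), Srebf1 (0.0422) and Srebf2 (0.00924) passed, when 14010 probe sets did. Without KO17 and KO18, KO16 was the only PN1 ScapΔ/Δ array, and the E18.5 differences were unchanged. The PN1 differences were then -0.445 for Insig1, -0.325 for Scap, -0.402 for Srebf1 and -0.547 for Srebf2.

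From E18.5 to PN1 in control lungs Insig1 was higher by 0.47 ± 0.13, Srebf2 by 0.37 ± 0.11 and Scap by 0.14 ± 0.09, and Srebf1 was lower by -0.32 ± 0.10. These 4 genes had no overlap between the ages, against 17.6% of all probe sets higher and 16.5% lower with no overlap. None of the 6 passed (adjusted p from limma 0.0919 for Insig1, 0.113 for Srebf2, 0.13 for Srebf1 and 0.618 for Scap), and 2.58% of all probe sets did. Quantile normalization called Insig1 (adjusted p = 0.0259 from limma), and array weights called Insig1 (0.00649), Srebf1 (0.0123) and Srebf2 (0.0145). These settings called 563 and 2846 of 22800 probe sets. Srebf1 and Srebf2 thus differed in opposite directions, each by more than the spread within either age. The deleted arrays are outside this comparison but enter the fit that gives its spread. Without KO16, Insig1 (adjusted p = 0.00327 from limma), Srebf2 (0.0291) and Srebf1 (0.0334) passed, when 2718 of 22633 probe sets did. Leaving out KO17 and KO18 in place of KO16 cannot change these differences, which come from control arrays alone. The SE of Insig1 was then 0.08 in place of 0.13, and calls changed in that fit as well.

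In ScapΔ/Δ lungs Insig1 rose from E18.5 to PN1 by 0.39 ± 0.13 (adjusted p = 0.0386 from limma), Scap by 0.26 ± 0.09 (0.0399) and Srebf2 by 0.52 ± 0.11 (0.00972). Insig2 fell by 0.66 ± 0.15 (adjusted p = 0.0124 from limma), and Srebf1, at -0.04 ± 0.10, and Mbtps1, at -0.05 ± 0.11, did not pass. Calls were common in this comparison, with 17.5% of all probe sets higher and 20.1% lower. The split depended on the scaling, since median centring called 1994 higher and 6655 lower of 22800 and moved the median of all probe sets from -0.03 to -0.200. Under that centring Insig1 (0.21, adjusted p = 0.315 from limma) and Scap (0.08, 0.493) did not pass. Nor did Insig1 with all 18 arrays in 1 fit (0.067) or Scap with an intensity trend (0.0531). The call of Srebf2 remained whichever single array was left out, with adjusted p from limma from 0.000554 to 0.0457. It did not remain without both KO17 and KO18, which leaves KO16 alone. The call of Insig2 was lost without KO17 (adjusted p = 0.052) or KO18 (0.0521). That of Insig1 was lost without any one of C7, C8, C9, KO10, KO11, KO12, C14, C15, KO17 or KO18, with adjusted p from 0.051 to 0.0964. That of Scap was lost without any one of C7, C8, C9, KO11, KO12, C13, C15, KO17 or KO18, with adjusted p from 0.0512 to 0.136. Without both KO17 and KO18, which leaves KO16 as the only PN1 ScapΔ/Δ array, Insig1 was at 0.70, Srebf2 at 0.40, Scap at 0.225 and Insig2 at -0.25.

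**Figure D3:**
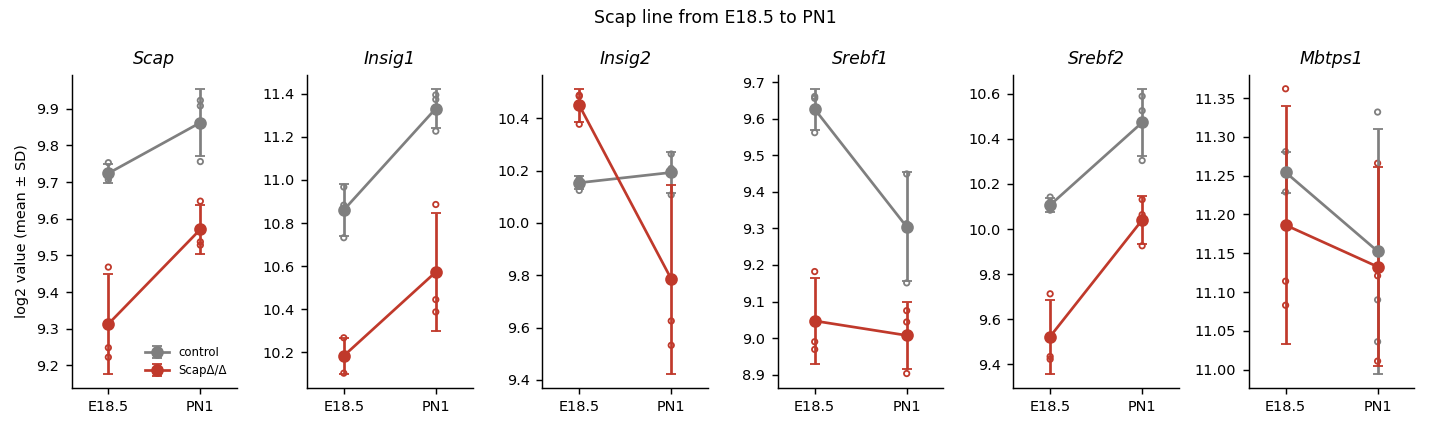
Log2 value of each member (vertical axes) at E18.5 and at PN1 (horizontal axes) in control lungs (grey) and ScapΔ/Δ lungs (red). Filled points are means with 1 SD (n = 3) and open points are arrays. Insig1, Srebf2 and Scap lie higher at PN1 in both genotypes, Srebf1 lies lower at PN1 in controls, and the Insig2 lines cross.

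The targets of the pathway were described with lists drawn from textbook knowledge. Of 18 sterol targets, the genes of cholesterol synthesis and transport, 14 had a probe set. All 14 were below 0 in ScapΔ/Δ lungs at E18.5 (median difference -0.32, 11 with no overlap against 21% of all probe sets) and at PN1 (median -0.91, 14 with no overlap against 11%). All 14 were above 0 in Insig1/2Δ/Δ lungs (median 0.73, 13 with no overlap against 5.83%), and the medians of all probe sets were -0.04, -0.06 and 0.01. None of the 14 passed the test in these comparisons. Sqle, the squalene epoxidase, was at -0.56 ± 0.22 at E18.5 and at -1.15 ± 0.22 at PN1. Idi1, which isomerises isopentenyl diphosphate, was at -1.50 ± 0.32 at PN1 and at 1.03 ± 0.14 in Insig1/2Δ/Δ lungs, where Lss, the lanosterol synthase, was at 0.96 ± 0.10. From E18.5 to PN1 the difference became more negative for all 14 sterol targets (median change -0.56). For Scap, Srebf1, Srebf2 and Mbtps1 it changed by 0.12, 0.28, 0.15 and 0.05, and for Insig1 and Insig2 by -0.08 and -0.70. None of these changes was called. At PN1 the mean log2 value of the sterol targets was lower on KO17 (9.12) and KO18 (9.02), the arrays that stand apart, than on KO16 (9.86). How far the change of the targets rests on KO17 and KO18 was not tested.

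By array, the mean log2 value of the sterol targets was 9.25 to 9.28 on the E18.5 deleted arrays and 9.51 to 9.64 on their controls. At PN1 it was 9.86 on KO16, 9.12 on KO17 and 9.02 on KO18, against 10.15 to 10.31 in controls. KO16, with the lowest Srebf2 of the PN1 lungs, had the highest sterol targets and Insig1 of the ScapΔ/Δ lungs of that age. In the Insig line the mean was 9.58 to 9.72 in controls and 10.17 to 10.43 with the deletion, and KO22, with the highest Srebf2, had the lowest mean of the 3.

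All 14 fatty acid targets of SREBP had a probe set. At E18.5 12 were below 0 with a median of -0.35 and 9 were lower with no overlap, against 21% of all probe sets. At PN1 12 were below 0 with a median of -0.53, 10 were lower with no overlap against 11%, and Scd1 and Scd2, the stearoyl-CoA desaturases, passed. Scd1 fell by 3.54 ± 0.36 (adjusted p = 0.014 from limma) and Scd2 by 1.21 ± 0.10 (adjusted p = 0.00473 from limma). Fasn, the fatty acid synthase, was at -0.64 ± 0.16 at E18.5. In Insig1/2Δ/Δ lungs 12 of the 14 were above 0, but the median was 0.09, 4 were higher with no overlap against 5.83%, and none passed. Fads1, the delta-5 desaturase, was at 0.34 ± 0.08 there. In controls from E18.5 to PN1 the sterol targets had a median of 0.52, all 14 above 0 and 3 called against 2.58% of all probe sets, and the fatty acid targets a median of -0.13 with 8 below 0 and 1 called.

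**Figure D4:**
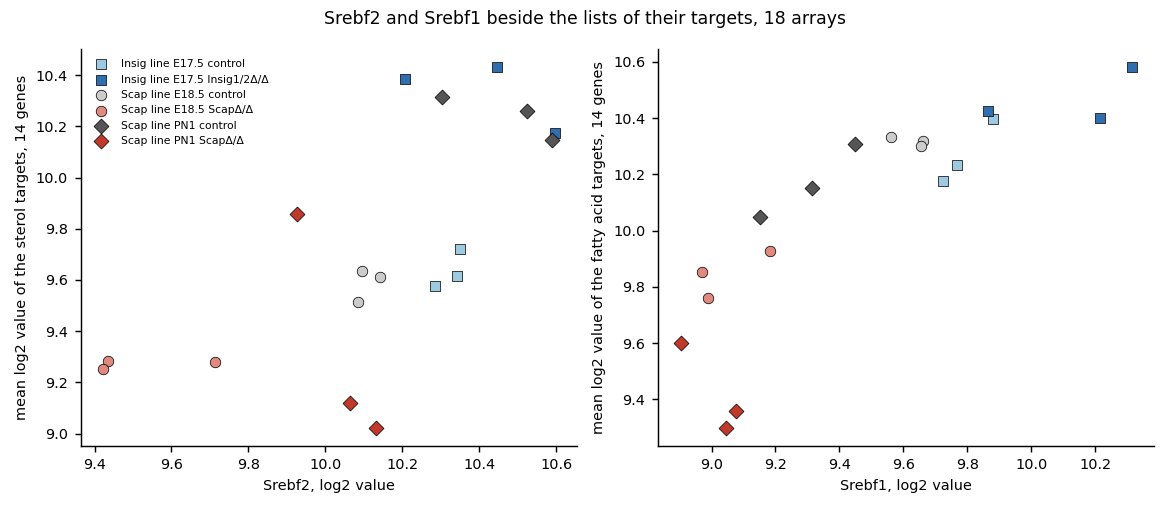
Mean log2 value of the 14 sterol targets against the log2 value of Srebf2 (left) and of the 14 fatty acid targets against that of Srebf1 (right), 1 point per array, coloured by group. Sterol targets of the Insig1/2Δ/Δ arrays lie at 10.17 to 10.43 and those of the Insig controls at 9.58 to 9.72, with Srebf2 at 10.21 to 10.60 and 10.29 to 10.35.

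The genes that handle the SCAP and SREBP proteins were split in direction or had small medians. Of 13 measured genes for holding or degrading the INSIG complex, 5 were above and 8 below 0 at E18.5 (median -0.03). At PN1 3 were above and 10 below (median -0.13), and in the Insig line 6 were above and 7 below (median -0.04). Erlin1, part of a complex that turns over proteins of the endoplasmic reticulum, was at 0.27 ± 0.22 at E18.5 with no overlap, and Syvn1, a ubiquitin ligase, at -0.23 ± 0.07. Of 12 COPII genes, 9, 8 and 9 were below 0 in the E18.5, PN1 and Insig comparisons, with medians of -0.13, -0.15 and -0.10. Sar1b, a COPII GTPase, was at 0.31 ± 0.19 at E18.5 and Sec31a, of the outer coat, at -0.19 ± 0.09. Of 9 other substrates and partners of the proteases, 8, 7 and 5 were below 0 (medians -0.15, -0.14 and -0.02). Atf6b, a stress sensor cut by the same proteases, was at -0.44 ± 0.11 at PN1 and Creb3l2, a further substrate, at -0.29 ± 0.11 in the Insig line. Of 13 nuclear partners and regulators of SREBP, 10, 9 and 10 were below 0 (medians -0.13, -0.21 and -0.11). Nfyc, an NF-Y subunit, was at -0.51 ± 0.15 and Med15, the Mediator subunit that SREBP binds, at -0.345 ± 0.10 at PN1. No gene of these 4 lists passed in a deletion comparison.

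Across the 18 arrays the profiles of Scap and Srebf2 were the most alike of the member pairs, with r = 0.943, and each was the closest of 16464 other probe sets to the other. The correlation was 0.947 without KO17 and KO18 and 0.983 over the 10 remaining arrays of the Scap line. The arrays share groups, so this mostly restates the group means. With each group mean taken away and the 3 PN1 ScapΔ/Δ arrays left out, Scap and Srebf2 still correlated at 0.90 over 15 arrays, and so did Srebf2 and Mbtps1, at 0.907. High values are common there for Srebf2, since 3.52% of probe sets correlated better with Srebf2 than Scap did and 3.06% better than Mbtps1 did. Seen from the other gene of each pair, 0.559% correlated better with Scap than Srebf2 did, and 4.26% better with Mbtps1. Insig1 and Insig2, at 0.749 over 18 arrays, correlated at -0.754 over the 10 Scap line arrays. Both were lower in the Insig line, and they went opposite ways with Scap deletion at E18.5.

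Likeness was ranked by the lower of r over 18 arrays, which is the value given here, and r over the 16 without KO17 and KO18. The next most alike genes to Scap were Zyx, a focal adhesion protein (r = 0.915), and Pdcd6ip, an endosomal sorting partner (0.902). For Srebf2 they were Tgfb3, a growth factor (0.933), and Akt1, a kinase (0.901). By that rule Mexis, Mta1, a chromatin remodelling subunit, and Sgsm1 came first for Srebf1, at 0.916, 0.916 and 0.909. Fasn, whose 0.918 over 18 arrays was higher than any of these but whose r over 16 arrays was 0.907, came at rank 4. Acaca, the acetyl-CoA carboxylase, came at rank 6 with 0.891, and both were named after their values were seen. Fyb, Gipc2 and Morrbid were closest to Insig1, at 0.867, 0.866 and 0.859. Tlr6, a receptor of innate immunity, Kcns3, a potassium channel subunit, and Gm1966 were closest to Insig2, at 0.969, 0.961 and 0.960. Mrtfb, an actin-responsive cofactor, C2cd3, a centriole protein, and Zc3h7b were closest to Mbtps1, at 0.969, 0.968 and 0.961.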

How the data were processed

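Log2 expression values per probe set were deposited by the authors, who measured whole-lung RNA on Affymetrix Mouse Gene 1.0 ST arrays and used GeneSpring for further analysis. The summarization and normalization are not given in the sources used here. Values ran from 3.09 to 14.05 and array medians from 7.42 to 7.70. The number of arrays limits the precision. Groups came from the labels. Whether the 3 arrays of a group are separate litters is not given, so p-values measure the spread between these lungs.

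A probe set was kept when it reached the 35th percentile of values on 66% or more of the arrays fitted together. Linear models (limma 3.58.1, R 4.3.3) covered the 12 arrays of the Scap line (4 group means), the 6 of the Insig line, and all 18 for the comparison of lines, with Benjamini-Hochberg adjustment over all probe sets and calls under 0.05. The fit was tested on simulated data. Fold differences are on the log2 scale. Python 3.11.15 with numpy 2.4.6, pandas 2.3.3 and, for plots, matplotlib 3.10.9 served for the summaries. Promoter windows are from RefSeq, GRCm38.p6.

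The members, lists and tests were chosen with earlier results of these data known. Genes named are the members, up to 3 per list and comparison with the largest difference and no overlap, those that passed, and the 3 most alike to each member by the lower of 2 Pearson correlations (18 arrays, and 16 without KO17 and KO18). A gene with several probe sets entered by the one of highest mean. Alternatives were other filters, quantile normalization, median centring, a trend in the spread, array weights and all arrays in 1 fit. Further ones were the t-test that the methods used for the Insig line, and each array left out. The fit without KO17 and KO18, the array set as a term and the short motif were added after the data were seen. The ScapΔ/Δ arrays of E17.5 were not analysed here, and some target genes are not reported.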

Additional observations from a re-analysis of the deposited data

How the results depend on the processing

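No paired analysis was possible because the replicate numbers in the labels are unique to each array, so no groups share a number.

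Of 588 values recomputed with 1 array left out, 499 kept direction and side of the threshold, and of 399 under the other alternatives 328 did. With 1 array left out the called probe sets ranged from 0 to 99 at E18.5 (2 with all arrays), 1 to 14010 at PN1 (2), 0 to 13219 for the change between ages (0), 140 to 2718 for age in controls (589), 1716 to 16316 for age in ScapΔ/Δ lungs (8581) and 125 to 3596 between lines (849), with the highest values without KO16, and stayed 0 in the Insig line. The E18.5 differences ranged over -0.741 to -0.623 for Insig1, 0.277 to 0.333 for Insig2, -0.489 to -0.366 for Scap, -0.647 to -0.54 for Srebf1, -0.677 to -0.533 for Srebf2 and -0.156 to -0.016 for Mbtps1. Those at PN1 ranged over -0.915 to -0.666, -0.615 to -0.281, -0.345 to -0.261, -0.374 to -0.225, -0.517 to -0.374 and -0.087 to 0.07, and those of the Insig line over -1.366 to -1.011, 0.12 to 0.208, -0.045 to 0.057, 0.247 to 0.473, 0.001 to 0.195 and -0.241 to -0.02, in the same order of genes. Values near 0 crossed it for age in ScapΔ/Δ lungs (Srebf1 -0.079 to 0.027, Mbtps1 -0.121 to 0.034), for the change between ages (Insig1 -0.238 to 0.011, Mbtps1 -0.019 to 0.137) and for Scap between lines (-0.006 to 0.019).

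Without the filter, 1 probe set was called at E18.5 and 18 at PN1. Quantile normalization called 1 at E18.5, passed Insig1 for age in controls (0.455) and turned Mbtps1 at PN1 (0.098) and with age in ScapΔ/Δ lungs (0.084), Srebf1 with age there (0.049), the change between ages of Insig1 (0.066), and Scap in the Insig line (0.01) and between lines (-0.022). Median centring called 0 at E18.5, 292 for age in controls and 527 between lines, and turned the change between ages of Mbtps1 (-0.126), Scap (-0.053) and Srebf2 (-0.023), where the median of all probe sets moved to -0.208 (and to -0.193 at PN1). Insig1 (0.214) and Scap (0.084) then lost their calls for age in ScapΔ/Δ lungs. With array weights, which gave KO16 a weight of 0.049 and KO17 10.05, calls were 2558 at E18.5, 15526 at PN1, 14685 for the change, 2846 and 17351 for age in controls and ScapΔ/Δ lungs, 8366 in the Insig line and 12326 between lines. Insig1, Insig2, Scap, Srebf1 and Srebf2 then passed at E18.5 (-0.627, 0.299, -0.44, -0.602 and -0.604) and at PN1 (-0.89, -0.658, -0.303, -0.211 and -0.374). Insig1 (-1.224) and Srebf1 (0.522) passed in the Insig line, and Insig2 (-0.958) and Srebf1 (0.391) for the change between ages. Insig1 (0.494), Srebf1 (-0.347) and Srebf2 (0.339) passed for age in controls, and Mbtps1 (0.233) and Srebf2 (0.208) between lines. Scap in the Insig line (0.052) and Srebf1 with age in ScapΔ/Δ lungs (0.045) turned. All 18 arrays in 1 fit called 5 at E18.5 and 2995 at PN1, where Insig1 (-0.758), Insig2 (-0.408), Scap (-0.292) and Srebf2 (-0.432) passed, and Insig1 lost its call for age in ScapΔ/Δ lungs, as Scap did with an intensity trend. The t-test that the methods used for the Insig line, with Benjamini-Hochberg adjustment, called 0 in that line under 0.05. Applied to the Scap line, where the methods used an ANOVA of genotype and time, it called 0 at E18.5 and 0 at PN1. Without KO17 and KO18, chosen after seeing the data, 21 were called at E18.5, 0 at PN1, 2516 for age in controls and 1414 in ScapΔ/Δ lungs. Insig1 then passed at E18.5 (-0.676), and Insig2 at PN1 (0.006) and the change of Insig1 (0.231) and Mbtps1 (-0.074) turned. The set of arrays as a term, also added later, turned Scap in the Insig line (0.011). The cause of these changes was not tested. The 3 arrays per group limit what can be called.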
